A study of Mus musculus with 6 samples.

Results

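The GADD45 family of mouse consists of 3 genes, Gadd45a, Gadd45b and Gadd45g, which were matched by symbol among the 55385 genes of the deposited count files. All 3 passed the filter on low counts, as did 18132 genes in all. They were compared between 3 libraries labelled activated and 3 labelled control, made from ribosome-depleted total RNA of primary cortical neurons of mouse. The neurons came from embryos at day 18 and were kept for 16 days in vitro, and every culture had received 2.5 uM AraC, an inhibitor of DNA synthesis, for 24 hours from day 2. Cells labelled activated had been depolarised with KCl for 5 minutes, washed, and collected 30 minutes later, whereas cells labelled control were untreated. The KCl concentration is given as 50 mM in one label and 50 uM in another. Neither a strain nor the number of animals or cultures behind the replicates is given in the labels, so p-values measure the spread between these samples, which may be technical.

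GADD45 proteins are small acidic proteins of the nucleus and cytoplasm with no known enzymatic activity, and they act by binding others. They bind the kinase MAP3K4, which starts the p38 and JNK stress cascades, they bind the replication clamp PCNA, the cell cycle inhibitor p21 and the CDK1 kinase, and they have been linked to removal of DNA methylation by repair enzymes. Gadd45a is a classical target of p53 and of DNA damage, Gadd45b responds to NF-kB and TGF-beta, and Gadd45g responds to cytokines. In mouse brain Gadd45b and Gadd45g are also known as genes induced by neuronal activity.

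The 3 genes lie on separate chromosomes in the mm10 build (GRCm38). Gadd45a (ENSMUSG00000036390.8) occupies chromosome 6 from 67035096 to 67037457 on the minus strand, Gadd45b (ENSMUSG00000015312.9) chromosome 10 from 80930073 to 80932204 on the plus strand, and Gadd45g (ENSMUSG00000021453.2) chromosome 13 from 51846678 to 51848468 on the plus strand. GENCODE lists 7 transcripts for Gadd45a, 3 for Gadd45b and 2 for Gadd45g, and the longest coding transcript of each has 4 exons. Its length is 1223 bases for Gadd45a, 1284 for Gadd45b and 1071 for Gadd45g.

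The sequence just upstream of each gene is shown because Gadd45b and Gadd45g moved together in the comparison below and Gadd45a moved the other way. Sequences are from RefSeq (GRCm38.p6), 5′ to 3′ on the strand of the gene, and end before the most upstream annotated start. Capitals mark matches to a fixed set of motifs on either strand. The windows are chr6:67037458-67037657 (minus strand), chr10:80929841-80930072 (plus strand) and chr13:51846425-51846674 (plus strand), in the order printed.
Gadd45a: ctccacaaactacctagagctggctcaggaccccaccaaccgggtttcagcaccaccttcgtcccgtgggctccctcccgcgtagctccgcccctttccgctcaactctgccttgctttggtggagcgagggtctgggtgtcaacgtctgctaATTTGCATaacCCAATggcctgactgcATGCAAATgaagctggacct
Gadd45b: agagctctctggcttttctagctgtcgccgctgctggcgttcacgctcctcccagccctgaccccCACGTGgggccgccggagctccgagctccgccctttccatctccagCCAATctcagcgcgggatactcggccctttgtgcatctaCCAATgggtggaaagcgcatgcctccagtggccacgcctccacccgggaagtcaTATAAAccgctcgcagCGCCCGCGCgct
Gadd45g: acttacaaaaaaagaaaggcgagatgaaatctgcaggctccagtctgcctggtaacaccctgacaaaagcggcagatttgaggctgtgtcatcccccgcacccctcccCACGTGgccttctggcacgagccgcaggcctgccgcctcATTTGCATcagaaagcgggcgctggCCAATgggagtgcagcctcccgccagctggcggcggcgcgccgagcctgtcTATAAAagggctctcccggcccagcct

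Gadd45b and Gadd45g shared an E-box (CACGTG) and a TATA box (TATAAA), neither of which was matched in the Gadd45a window. That window ended above the start of a transcript annotated as retained intron (67037457), and distances in Gadd45a are counted from there. The longest coding transcript of Gadd45a starts further down, at 67037406. The bases between were not searched, so a TATA box close to the coding start would have been missed. The E-box began 167 bases upstream in Gadd45b and 142 in Gadd45g, counting the last printed base as 1. Windows of the printed lengths, 232 and 250 bases in the same order, held it in 5.41% and 6.02% of 32851 mouse promoters. The TATA box began 28 and 27 bases upstream in Gadd45b and Gadd45g, and was held by 11.9% and 12.4% of promoters in windows of the printed lengths. Windows of other promoters began 250 bases upstream of their start, so those shorter than 250 bases left out the bases nearest it. The octamer (ATTTGCAT) was matched at 47 and 20 bases upstream in Gadd45a and at 103 in Gadd45g. It was held by 1.32% of promoters at the length of the Gadd45a window and 1.60% at that of the Gadd45g window. The CCAAT box (CCAAT) was matched in all 3 windows, as in 28.4% to 33.8% of promoters, and the EGR motif (GCGNGGGCG) in Gadd45b alone, as in 4.08% of promoters. The CRE (TGACGTCA), the AP-1 motif (TGANTCA) and the CArG box were in none of the 3 windows, against 1.55%, 6.75% and 1.47% of promoters at the length of the Gadd45g window. No matches overlapped each other. A match is a description of the letters and not a binding site.

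Reads assigned to genes numbered 17752711, 27681419 and 32740171 in activated replicates 1, 2 and 3, and 27881179, 22994946 and 32919975 in control replicates 1, 2 and 3. Of all reads, 28.3% to 37.3% matched no annotated exon on the counted strand in libraries labelled activated, against 25.1% to 29.6% in those labelled control. This share includes reads in exons on the opposite strand. Genes that depolarisation is known to induce did not match the group names. Arc, an effector of synaptic plasticity, stood at 46.3 to 52.1 CPM (read counts scaled to library size) in libraries labelled activated and at 163 to 186 CPM in those labelled control. Npas4, a transcription factor induced by calcium entry, stood at 42.3 to 47.9 CPM in libraries labelled activated and 147 to 169 CPM in those labelled control, and Fosb, an AP-1 subunit, at 32.4 to 51.6 CPM and 199 to 213 CPM in the same order. Groups are therefore called by their labels, and every direction given holds only if those labels are correct.

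The family split in direction. Gadd45g and Gadd45b fell, to 0.266 and 0.473 of their level in libraries labelled control, and Gadd45a rose to 1.53 times that level. The call of Gadd45a, and with it the split, was lost in unstranded counts (edgeR adjusted p = 0.0634).

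Gadd45g changed most. It had 8.21, 8.66 and 11.3 CPM in activated replicates 1, 2 and 3, against 31.3, 40.9 and 35.2 CPM in control replicates 1, 2 and 3. The groups were far apart, with the highest library labelled activated well under the lowest labelled control. The means were 9.38 ± 1.65 CPM in libraries labelled activated and 35.8 ± 4.85 CPM in those labelled control (SD, n = 3 each). This gave a log2 fold change of −1.91 with an SE of 0.12 (edgeR quasi-likelihood test, adjusted p = 5.99e-07). Among 18132 tested genes it ranked 4 from the lowest, after Fosb (−2.39), Egr2 (−1.95) and Egr4 (−1.91). The values rest on 138 to 359 reads per library labelled activated and 885 to 1191 per library labelled control.

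Gadd45b, which is linked in mouse hippocampus to activity-dependent loss of DNA methylation, had 9.17, 9.66 and 10.9 CPM in activated replicates 1, 2 and 3, against 21.7, 22.4 and 19.2 CPM in control replicates 1, 2 and 3. Its groups did not overlap either, and both were narrow. The means were 9.89 ± 0.866 CPM in libraries labelled activated and 21.1 ± 1.67 CPM in those labelled control (SD, n = 3 each). Its log2 fold change of −1.08 had an SE of 0.10 (edgeR adjusted p = 1.15e-05) and ranked 40 from the lowest among tested genes.

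Gadd45a, the p53-responsive member, had 4.23, 5.82 and 6.30 CPM in activated replicates 1, 2 and 3, against 3.29, 3.90 and 3.69 CPM in control replicates 1, 2 and 3. All 3 libraries labelled activated lay above all 3 labelled control, but activated replicate 1 was only slightly above control replicate 2. The means were 5.45 ± 1.09 CPM in libraries labelled activated and 3.63 ± 0.311 CPM in those labelled control (SD, n = 3 each). Its log2 fold change of 0.61 had an SE of 0.16 (edgeR adjusted p = 0.0103). In contrast to the other members, Gadd45a did not lie at the end of the range, ranking 1901 from the highest among 18132 tested genes. A larger change was found for 1282 of the 2945 genes called higher. Counts were low, at 71, 162 and 201 reads in activated replicates 1, 2 and 3 and 93, 92 and 125 reads in control replicates 1, 2 and 3.

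**Figure D1:**
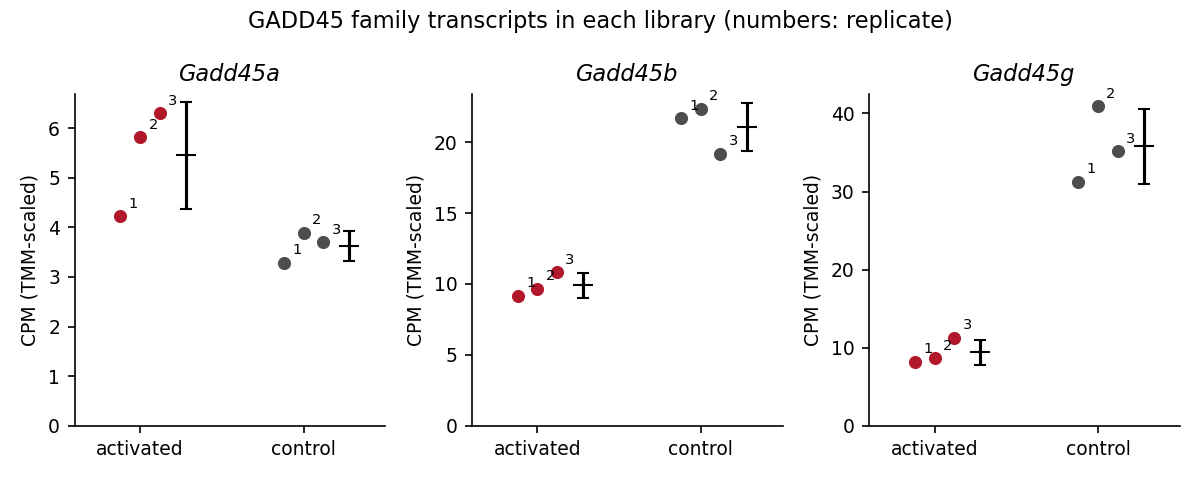
TMM-scaled CPM of Gadd45a, Gadd45b and Gadd45g in each library, with libraries labelled activated on the left and control on the right of each panel. Points are libraries numbered by replicate and bars are mean ± SD of 3; Gadd45a is higher and the other members are lower in libraries labelled activated, with no overlap between groups.

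These calls are read against a broad difference between the groups. An adjusted p below 0.05 was reached by 36.8% of all tested genes, 16.2% called higher and 20.6% called lower in libraries labelled activated, so that 1 higher and 2 lower members among 3 do not set the family apart by their number. For 49.0% of tested genes the ranges of the groups were separate. Where Gadd45g and Gadd45b stood apart from most genes was in size. A log2 fold change of −1 or below was found for 56 tested genes, both of them included, while the median of all tested genes was 0.04. Changes of this size were more frequent upward, with a log2 fold change of 1 or above for 326 tested genes. Of the called genes 55.9% were lower. This share was 68.7% when libraries were scaled by total counts, and 26.0% when they were scaled to the summed counts of the general, excitatory and inhibitory neuron markers described at the end, a scaling that shifted the median log2 fold change over all genes by 0.14. Under that last scaling the log2 fold changes were −1.77 for Gadd45g, −0.94 for Gadd45b and 0.76 for Gadd45a, and all passed (edgeR adjusted p of 6.07e-07, 2.57e-05 and 0.00458 in that order). This scaling did not level the neuron markers, since 8 of 10 general markers were still lower (median log2 fold change −0.35), as were 8 of 15 inhibitory ones (−0.37).

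**Figure D2:**
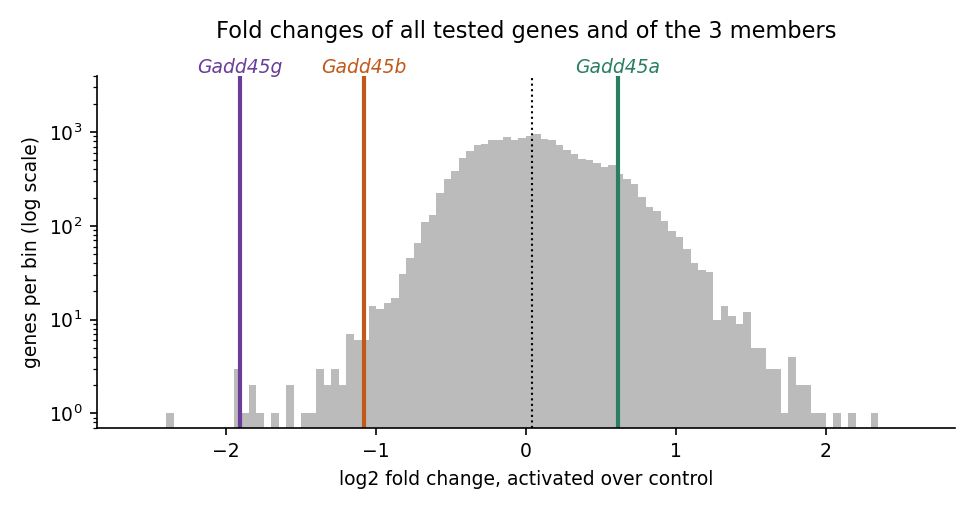
Histogram of log2 fold changes (activated over control) of the 18132 tested genes, with a log scale for genes per bin. Coloured lines mark the members and the dotted line the median of 0.04. Gadd45g at −1.91 and Gadd45b at −1.08 lie in the sparse lower tail, while Gadd45a at 0.61 ranks 1901 from the highest.

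Ratios between members were taken within each library, a comparison that does not depend on how libraries are scaled. Any 2 of the 3 ratios fix the third. The log2 ratio of Gadd45g to Gadd45b counts was −0.16, −0.16 and 0.05 in activated replicates 1, 2 and 3, against 0.53, 0.87 and 0.88 in control replicates 1, 2 and 3. Reads of the pair were thus nearly balanced in libraries labelled activated, while Gadd45g was in excess in those labelled control. The difference in this log2 ratio, activated minus control, was −0.85. For Gadd45g to Gadd45a the mean log2 ratio was 0.79 ± 0.20 in libraries labelled activated and 3.29 ± 0.08 in those labelled control (SD, n = 3 each), a difference of −2.51. For Gadd45b to Gadd45a it was 0.87 ± 0.21 and 2.53 ± 0.17 in the same order (SD, n = 3 each), a difference of −1.66. For each of the 3 ratios all 3 libraries labelled activated lay below all 3 labelled control, and the two-sided exact permutation test gave p = 0.1, the smallest that 3 against 3 allows, also after adjustment over the 3 ratios.

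**Figure D3:**
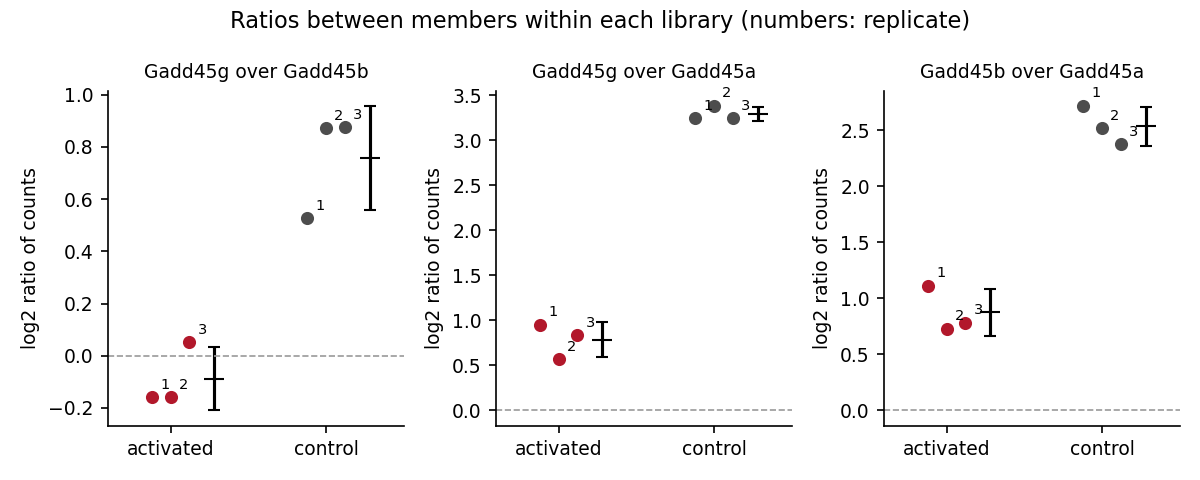
Log2 ratio of read counts between pairs of members within each library, activated on the left and control on the right of each panel; points are libraries numbered by replicate and bars are mean ± SD of 3. All 3 ratios are lower in libraries labelled activated, and the ratio of Gadd45g to Gadd45b lies near 0 there.

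Scaled to transcript length (RPKM, CPM per kilobase of the longest coding transcript), the order of the members was Gadd45g, Gadd45b, Gadd45a in both groups. In libraries labelled activated the levels were 8.75 ± 1.54, 7.70 ± 0.675 and 4.46 ± 0.889 RPKM in that order, against 33.4 ± 4.52, 16.4 ± 1.30 and 2.96 ± 0.254 RPKM in libraries labelled control (SD, n = 3 each). Gadd45g and Gadd45b overlapped in range in libraries labelled activated and did not in those labelled control, while Gadd45a stayed below both in every library. Per length over all annotated exons, Gadd45g and Gadd45b no longer overlapped in libraries labelled activated, at 7.99 ± 1.40 and 6.23 ± 0.545 RPKM (SD, n = 3 each).

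The makeup of the family differed accordingly. The summed level of the members was 20.9 ± 2.97 RPKM in libraries labelled activated and 52.8 ± 5.29 RPKM in those labelled control (SD, n = 3 each). Gadd45g contributed 41.8% ± 1.96 of that sum in libraries labelled activated and 63.2% ± 2.87 in those labelled control (SD, n = 3 each). Gadd45b contributed 37.0% ± 2.02 and 31.2% ± 2.97, and Gadd45a 21.2% ± 2.23 and 5.62% ± 0.281, in the same order (SD, n = 3 each). Against other protein-coding genes that were tested, the mean RPKM of Gadd45g exceeded 62.1% of them in libraries labelled activated and 90.1% in those labelled control, that of Gadd45b 58.2% and 77.0%, and that of Gadd45a 42.7% and 33.9%.

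Gadd45a has a gene on its opposite strand, the noncoding E230016M11Rik (ENSMUSG00000087231.7, chromosome 6, 67036599 to 67080654, plus strand). Their exons share 337 bases, 19.1% of the annotated exonic bases of Gadd45a. Reads on the opposite strand at Gadd45a numbered 16, 38 and 24 in activated replicates 1, 2 and 3 and 26, 23 and 33 in control replicates 1, 2 and 3, or 17.7% of reads on both strands over the 6 libraries. At Gadd45b and Gadd45g, which no annotated gene overlaps, that share was 0.273% and 0.474%. E230016M11Rik itself had 5.15 ± 0.556 CPM in libraries labelled activated and 3.58 ± 0.331 CPM in those labelled control (SD, n = 3 each), and rose by 0.52 on the log2 scale (edgeR adjusted p = 0.0162). In unstranded counts, which drop reads that fall on both genes, Gadd45a had 46 to 116 reads per library, its log2 fold change was 0.47, and its call was lost (edgeR adjusted p = 0.0634).

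**Figure D4:**
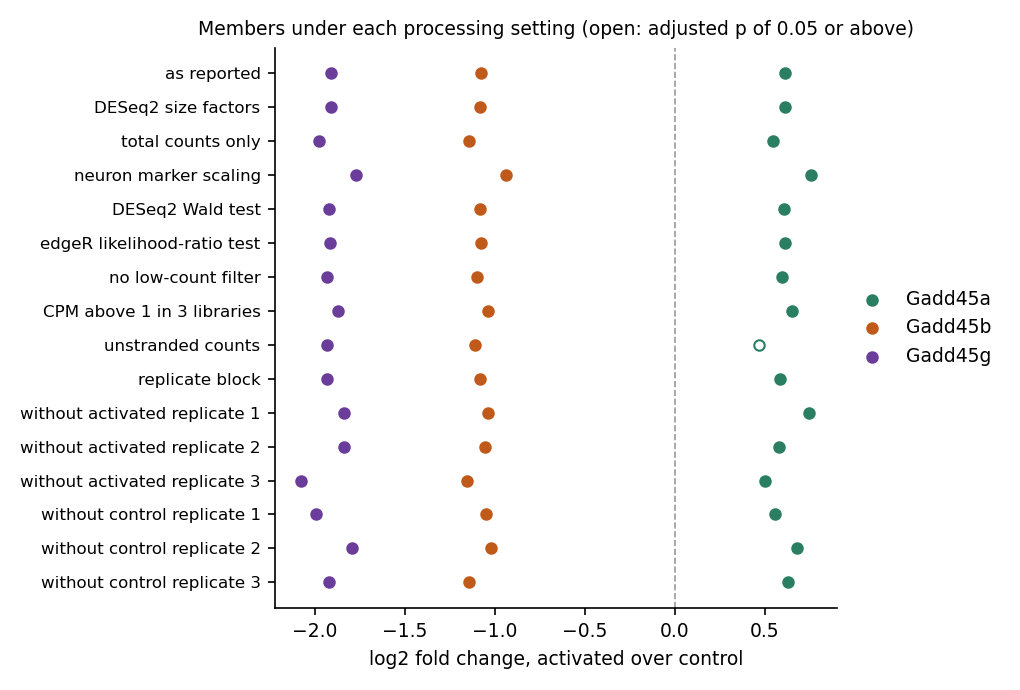
Log2 fold change (activated over control) of each member as reported and under 15 alternatives, one per row; open points did not reach an adjusted p below 0.05. Gadd45g stays between −2.08 and −1.77 and Gadd45b between −1.16 and −0.94, while Gadd45a lies between 0.47 and 0.76 and loses its call in unstranded counts.

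Other genes followed each member closely over the 6 libraries. Likeness was measured as the root-mean-square distance between log2 CPM profiles, each centred on its own mean, among 12983 protein-coding genes. Nearest to Gadd45g were Gm13889 (0.083), the zinc finger factor genes Egr2 (0.10) and Egr4 (0.11), and the small GTPase gene Arl4d (0.12). Their log2 fold changes lay between −1.95 and −1.78. Nearest to Gadd45b were the phosphatase gene Dusp14 (0.055), the nuclear receptor gene Nr4a1 (0.067), the zinc finger factor gene Klf10 (0.069) and the GTPase gene Arl5b (0.072), with log2 fold changes between −1.12 and −0.98. Their direction follows from their choice by likeness over the same libraries.

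The profiles nearest to Gadd45a were those of the microtubule-associated Togaram2 (0.058), the small heat shock protein gene Hspb1 (0.064), the NAD synthetase gene Nadsyn1 (0.073) and the receptor gene Gpr146 (0.073). Their log2 fold changes were 0.55, 0.69, 0.56 and 0.58, and their means were 2.96, 2.78, 2.63 and 8.10 CPM in libraries labelled activated, against 2.05, 1.75, 1.80 and 5.47 CPM in those labelled control. The calls of Togaram2 and Nadsyn1 were each lost in 9 of 15 alternatives, including those without activated replicate 2 or 3 or without any single control library. Hspb1 lost its call without activated replicate 3 (0.54) or control replicate 1 (0.63). These distances describe the shared pattern of 6 libraries only.

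Rapid activity-induced genes, of which Gadd45b and Gadd45g are known members in neurons, were mostly lower. Of 20 listed genes, all tested and none of the GADD45 family, 17 fell, 2 rose and 1 did not pass. The share of the list called was 95%, against 36.8% of all tested genes. The list holds Arc, Npas4 and Fosb, already shown above, and was chosen with earlier results of these data known. The median log2 fold change of the list was −1.04, against 0.04 over all tested genes. Arc and Npas4 fell by 1.84 each on the log2 scale, and Egr4 by 1.91. The members that rose were Zfp36, whose product promotes decay of mRNAs (1.21), and the small Maf gene Maff (17.8 CPM in libraries labelled activated and 9.07 CPM in those labelled control), both named after their values were seen. The log2 fold change of Gadd45b lay near the median of this list, and that of Gadd45g near those of Arc, Npas4 and Egr4.

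Of 14 listed genes for proteins that bind or are acted on by GADD45, 13 were tested, of which 5 fell, none rose and 8 did not pass, around a median log2 fold change of −0.18. The share called was 38.5%, near the 36.8% of all tested genes. Under the neuron marker scaling 3 fell and 2 rose, and 1 rose with a filter at a CPM above 1 in 3 libraries. The chromatin reader genes Ing2 (−0.52) and Ing1 (−0.45) fell, as did Gadd45gip1 (−0.49), which encodes a GADD45-interacting protein of mitochondrial ribosomes and lost its call under the neuron marker scaling (−0.34). The others that fell were Pcna (−0.45) and the DNA glycosylase gene Tdg (−0.41), named after their values were seen. Map3k4, the kinase gene through which the family reaches p38 and JNK, stood at 42.4 ± 0.994 CPM in libraries labelled activated and 43.4 ± 0.506 CPM in those labelled control (SD, n = 3 each; log2 fold change −0.03). Cdkn1a, which encodes p21, averaged 64.0 and 60.9 CPM in the same order (n = 3 each), with a log2 fold change of 0.08 and an SE of 0.11. Neither passed, and both were named after their values were seen.

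In the p38 and JNK stress kinase cascades, 7 of 21 listed genes fell, 2 rose and 12 did not pass (median log2 fold change −0.11). The list includes Map3k4 itself and other MAP3K genes that act beside it. The share called was 42.9%, against 36.8% of all tested genes. The JNK genes Mapk8 (−0.39) and Mapk9 (−0.37) and the JNK kinase gene Map2k4 (−0.40) fell. Those that rose were Mapkapk3 (0.77), a kinase gene downstream of p38, and the JNK scaffold gene Mapk8ip3 (0.19), named after their values were seen. Under the neuron marker scaling 3 fell and 2 rose, and with total counts 10 fell and 1 rose. In unstranded counts, without the filter, and without activated replicate 1, control replicate 2 or control replicate 3, again 1 rose.

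Among genes of DNA methylation and its removal, 7 of 22 tested (of 24 listed) fell, 2 rose and 13 did not pass (median log2 fold change 0.0013). The share called was 40.9%, near the 36.8% of all tested genes. Parp1 (−0.44), a sensor of DNA breaks, Tet3 (−0.34), which oxidises methylcytosine, and Apex1 (−0.66), the abasic site endonuclease gene, fell. The genes that rose were the cytidine deaminase genes Apobec1 (0.52) and Apobec3 (0.66), named after their values were seen, and 1 rose without control replicate 2 or 3 or by the DESeq2 Wald test. Under the neuron marker scaling 4 fell and 4 rose.

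Among p53 and its targets, the group to which Gadd45a belongs, 11 of 26 genes rose, 6 fell and 9 did not pass, around a median log2 fold change of 0.15. The share called was 65.4%, against 36.8% of all tested genes. Trp53inp1 (0.62), a regulator of p53-dependent cell death, and Eda2r (0.88), a receptor gene of the TNF receptor family, rose. Plk2, a polo-like kinase gene that neuronal activity also induces, fell by 0.91 on the log2 scale. Trp53 itself did not pass, at 12.6 ± 1.90 CPM in libraries labelled activated and 10.8 ± 0.855 CPM in those labelled control (SD, n = 3 each; log2 fold change 0.21; named after its value was seen). Under the neuron marker scaling 14 of the list were higher and 2 lower. With total counts 8 were higher and 6 lower (median log2 fold change 0.079). Without activated replicate 3 these numbers were 9 and 7 (0.062). In unstranded counts, or without control replicate 2 or 3, 9 were higher. The summed level of the list was lower in libraries labelled activated, at 887 to 1010 CPM, than in those labelled control, at 1038 to 1048 CPM.

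Of 22 transcription factor genes reported to control GADD45 genes, 7 fell, 3 rose and 12 did not pass (median log2 fold change −0.13). The share called was 45.5%, against 36.8% of all tested genes. Egr1 (−0.94), Atf4 (−0.73), the effector of the integrated stress response, and Atf2 (−0.44), a target of p38 and JNK, fell. The genes that rose were Nfkb1 (0.43), Foxo4 (0.53) and Cebpb (0.46), named after their values were seen, and 1 rose with total counts or without control replicate 1 or 3. Under the neuron marker scaling 5 rose and 4 fell. Of 11 other genes named for growth arrest or DNA damage, 3 fell, 1 rose and 7 did not pass (36.4% called), around a median log2 fold change of −0.21. These were Ppp1r15a (−0.56), known as GADD34, a phosphatase subunit that restores translation after stress, Gas7 (−0.32), Gadd45gip1, and Gas6 (0.33), a secreted ligand, which rose. Without activated replicate 3 this last list held 6 lower and 2 higher genes, and under the neuron marker scaling 2 lower and 3 higher ones. It held 5 lower genes with total counts or without the filter, and 2 higher with a filter at a CPM above 1 in 3 libraries.

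**Figure D5:**
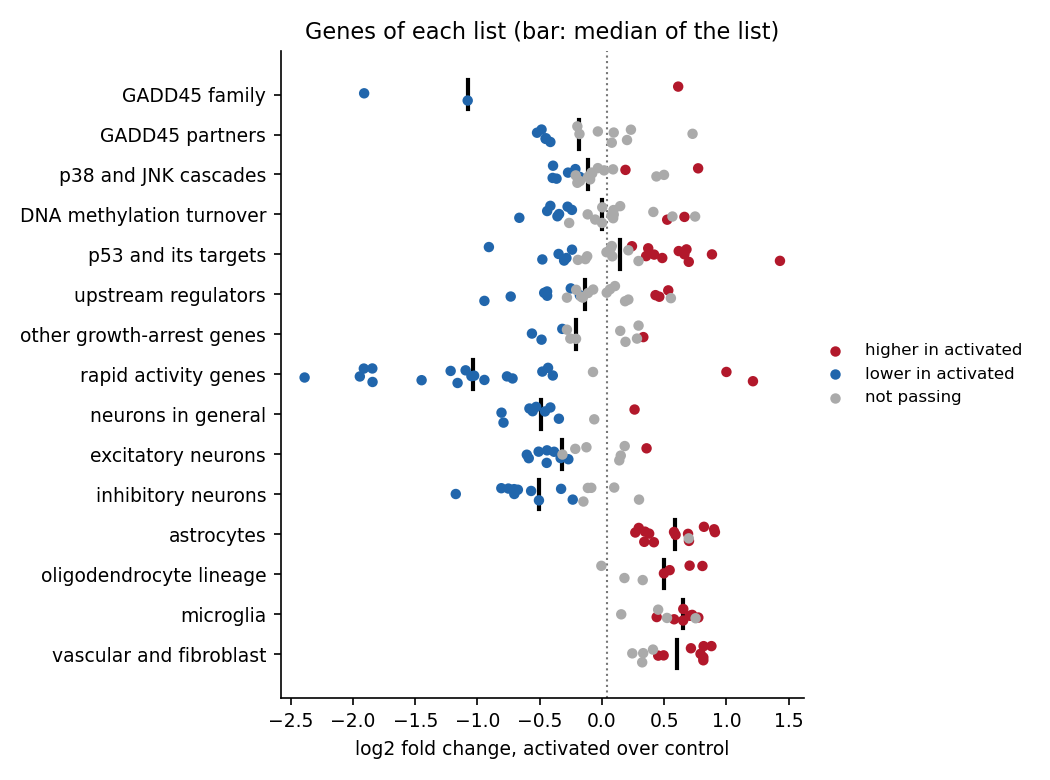
Log2 fold changes (activated over control) of the tested genes of each list, one list per row, with red for genes called higher, blue for genes called lower and grey for genes not passing. Black bars are list medians and the dotted line is the median of all tested genes, 0.04; rapid activity genes have a median of −1.04, near Gadd45b at −1.08.

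Markers of cell types other than neurons were more often called higher than lower in libraries labelled activated. The counts below stand beside 16.2% of all tested genes called higher in libraries labelled activated and 20.6% called lower. Of 14 astrocyte markers 13 rose, and their summed level was 2046 to 2473 CPM in libraries labelled activated and 1545 to 1598 CPM in those labelled control. Of 12 vascular and fibroblast markers tested (of 14 listed) 8 rose, summing to 386 to 449 CPM in libraries labelled activated and 244 to 279 CPM in those labelled control. Of 7 oligodendrocyte lineage markers tested (of 12 listed) 4 rose, summing to 78.4 to 90.1 and 59.8 to 65.1 CPM in the same order. Of 11 microglia markers tested (of 13 listed) 7 rose, with overlapping sums of 64.9 to 124 and 53.5 to 73.3 CPM in the same order, but 1 rose without activated replicate 3 or control replicate 3, 4 without control replicate 1, and 3 with total counts or by the DESeq2 Wald test. No marker of these lists was at 0 in all 6 libraries. The endothelial gene Cldn5 had no read in libraries labelled activated and at most 1 in those labelled control, and the myelin genes Mog and Opalin had at most 2 reads in any library.

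Neuron markers were more often called lower than higher in libraries labelled activated. Among all tested genes 20.6% were called lower and 16.2% higher. Of 10 general neuron markers 8 fell and 1 rose, with summed levels of 4681 to 5204 CPM in libraries labelled activated and 5352 to 5532 CPM in those labelled control. Of 15 inhibitory markers 10 fell and none rose (2 under the neuron marker scaling), summing to 1850 to 2066 CPM in libraries labelled activated and 2535 to 2607 CPM in those labelled control. Of 15 excitatory markers 8 fell and 1 rose (6 and 4 under the neuron marker scaling). Their sum was nonetheless higher in libraries labelled activated, at 2366 to 2560 CPM, than in those labelled control, at 2240 to 2354 CPM. Map2 (0.26) rose among the general markers and Camk2a (0.36) among the excitatory ones, both named after their values were seen. In such bulk samples fewer cells of a type and less RNA per cell cannot be told apart, and the part of cell makeup in the results of the GADD45 genes was not tested.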

How the data were processed

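Per the submitters' processing notes, the authors aligned reads to mm10 with STAR 2.5.2b and used edgeR. Alignment settings and the gene annotation behind the counts are not given in the sources used here. The deposited files hold raw read counts per gene, unstranded and by strand. The reverse-strand column was used, because the opposite strand held 4.05% to 4.29% of reads on both strands. The 4 lines that name no gene (42.3% to 50.7% of reads) were left out. Genes were named from GENCODE mouse release 21, which held 55144 of 55385 identifiers. Low counts were removed by filterByExpr, with a minimum count of 10 and a minimum total of 15. The count of 10 was applied as a CPM at the median library size and needed in 3 libraries. A tested gene can therefore have fewer reads in single libraries. Libraries were scaled by TMM, and groups were compared by quasi-likelihood in edgeR 4.0.16 (R 4.3.3), with Benjamini-Hochberg adjustment over 18132 genes at 0.05. Standard errors were taken as the size of the log2 fold change divided by the root of its F statistic. CPM values are TMM-scaled, log2 CPM used a prior count of 2, and ratios added 0.5 to each count. Likeness was sought among protein-coding genes with a mean log2 CPM of at least 0, keeping the 4 nearest per member. The text names the members, the 3 genes of each pathway list with the smallest p, and the exceptions it marks. Members, lists and rules were chosen with earlier results of these data known. The alternatives were the size factors and the Wald test of DESeq2 1.42.0, total counts, scaling to the summed counts of the neuron marker lists, the edgeR likelihood-ratio test, no filter, a filter at a CPM above 1 in 3 libraries, unstranded counts, a replicate block, and leaving out each library in turn. Plots used matplotlib 3.10.9.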

Additional observations from a re-analysis of the deposited data

How the results depend on the processing

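Over 15 alternatives Gadd45g ranged from −2.08 to −1.77 and Gadd45b from −1.16 to −0.94 in log2 fold change, and both passed in each. Gadd45a ranged from 0.47 to 0.76 and passed in all but unstranded counts (0.47, edgeR adjusted p = 0.0634); its adjusted p ranged from 0.00180 to 0.0634. Leaving out each library in turn gave −2.08 to −1.79 for Gadd45g, −1.16 to −1.02 for Gadd45b and 0.50 to 0.74 for Gadd45a, whose edgeR adjusted p was 0.0469 without control replicate 1. The ratios between members kept their sign when counts were unstranded, when 5 was added to each count, and without any single library, at −0.96 to −0.79 for Gadd45g over Gadd45b, −2.59 to −2.39 for Gadd45g over Gadd45a and −1.78 to −1.56 for Gadd45b over Gadd45a.

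Scaling to neuron markers gave 5215 higher and 1832 lower genes, against 2945 and 3733. The other alternatives kept both counts within 1.5 times. Same-numbered libraries did not deviate together (correlations across genes of −0.01, −0.18 and −0.21 for numbers 1, 2 and 3), and none was most like its own number. With the replicate block 2173 genes were higher and 3105 lower, the members had log2 fold changes of −1.93 (Gadd45g), −1.08 (Gadd45b) and 0.58 (Gadd45a), all called, 1 gene rose in each of the lists of microglia markers, transcription factors and stress kinases, and the ratios kept their values of −0.85, −2.51 and −1.66 with an exact sign-flip p = 0.25, the smallest that 3 pairs allow.

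With 71 to 201 reads per library, Gadd45a is the member with the least depth behind its value. No further alternative was left out.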

Other observations

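Among the libraries labelled activated, replicate 3 was the highest for each member, at 11.3 CPM for Gadd45g, 10.9 CPM for Gadd45b and 6.30 CPM for Gadd45a. It was also the highest of these 3 in the summed level of the 20 rapid activity-induced genes, at 1176 CPM against 937 CPM in each of the other libraries labelled activated. The same held for the summed levels of astrocyte (2473 CPM), microglia (124 CPM), vascular and fibroblast (449 CPM) and inhibitory neuron markers (2066 CPM), and of the lists of GADD45 partners, p53 targets, transcription factors and other growth arrest genes. It did not hold for general neuron, excitatory neuron and oligodendrocyte lineage markers, or for the stress kinase and DNA methylation lists. Without it the log2 fold changes were −2.08 for Gadd45g, −1.16 for Gadd45b and 0.50 for Gadd45a, and all 3 were called (edgeR adjusted p of 7.90e-10, 6.30e-07 and 0.0298 in that order).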
